A study of Mus musculus with 72 samples.

Results

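The maturation of the testis was followed in naturally conceived F1 males, in 4 testes collected before birth at embryonic day E18.5 and 5 testes collected at 12 weeks of age. These 9 libraries, of 72 in the series, are all of the natural F1 testis libraries of these ages, and they were chosen by their labels and compared over the 24107 gene symbols listed at both ages. The natural males (naturals) came from CF-1 females mated with SJL/B6 males that were heterozygous for GFP (a CAG-EGFP transgene), by natural mating and with no embryo transfer, so that both ages share parents of the same strains and the GFP cross. The E18.5 group was collected as fetal gonads. The 12-week group was raised with foster mothers, and the methods describe RNA from a cross section of the testis, with seminiferous tubules collected from adults. The wider study asks how in vitro fertilization (IVF) changes the male reproductive system, and its naturals provide the normal course from a fetal to a sperm-producing testis that is described here. Alternative fits took natural F2 testes at 12 weeks or natural F1 testes at 39 weeks as the adult group. Another alternative added the IVF testes of both F1 ages.

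Spermatogenesis begins with germ cells that are arrested in the fetal testis as prospermatogonia. After birth these resume division and give rise to spermatogonial stem cells, which renew themselves and also produce differentiating spermatogonia, meiotic spermatocytes and haploid spermatids. Spermatids build an acrosome (the secretory vesicle that opens on contact with the egg) and a flagellum, and replace their histones first with transition proteins and then with protamines. Sertoli cells nurse the germ cells within the tubules, Leydig cells between the tubules make androgens, and fetal and adult Leydig cells are separate populations.

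Expression was measured by RNA-Seq and is given as CPM, the counts of a gene scaled to a fixed library total, with library sizes corrected for composition by TMM factors of edgeR. Total counts were 2904727 to 4869139 in the E18.5 libraries and 15352769 to 20347426 in the 12-week libraries, and a count of 3 in a library corresponded to 0.482 to 0.754 CPM at E18.5 and 0.201 to 0.260 CPM at 12 weeks. The ages were separated along the first principal component, which held 94.0% of the variance. On the second component (1.60%) E18.5 replicate 1 stood apart, at 65.4 against -38.2 to -7.34 in the other E18.5 libraries. The E18.5 libraries stood in another count table than the 12-week libraries, with another set of gene symbols, so that age and count table cannot be told apart. Some symbols were therefore read with care. Rps27, Rpl30 and Rpl34, which encode ribosomal proteins that all cells use, went from 0.838 to 232 CPM, 1.51 to 104 CPM and 2.78 to 44.2 CPM, and Hba-a1, Hba-a2, Hbb-bs and Hbb-bt, the adult globin genes, were listed at 0 in all 4 E18.5 libraries. For a single gene a low or absent value at E18.5 is therefore not read as low RNA by itself, and the part of the counting was not tested. The methods describe animals from different litters, the labels do not link litters to libraries, and the p-values measure the spread between these libraries. Intervals and floors cover counting error only, and treat counts as independent fragments. Among counts of 1 to 20, 63.6% to 75.7% were even, as when both mates of a pair are counted, and the intervals would then be too narrow. Among the named genes, 11 overlap a symbol that 1 of the tables lists and the other does not, so that some of their reads could have been counted differently between the ages: Zbtb16, Hormad1, Brdt, Smcp, Cyp17a1, Rxfp2, Dnmt3a, Piwil4, Ldha, Pdha1 and Inhba. In tissue of many cell types, fewer cells of a type and less RNA per cell cannot be told apart. The tissue described also differs between the ages (fetal gonads, and adult testis or tubules), so that age and the tissue taken cannot be told apart. For genes of cells between the tubules, the part of the tissue taken was not tested.

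Of 17009 genes tested, 7091 (41.7%) were higher and 6068 (35.7%) lower at 12 weeks, where a call required both an edgeR adjusted p below 0.05 and more than 1.5-fold change. A change over 4-fold was found for 4480 genes (26.3%) that were higher and 2832 (16.7%) that were lower. The median log2 fold change of all genes was 0.15, and in 42.6% and 35.1% of genes every 12-week library was above or below every E18.5 library. These shares are the background for each count of a gene list. The balance of directions depended on scaling and on the filter. Without the composition factor, 5404 genes were higher and 8255 lower, and the median of all genes moved to -0.60. With at least 10 counts in every library, 4127 were higher and 4334 lower, with a median of -0.06. The composition factors put a step of -0.76 on the log2 scale between the ages, so that the direction of smaller changes can be set by the scaling.

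**Figure D1:**
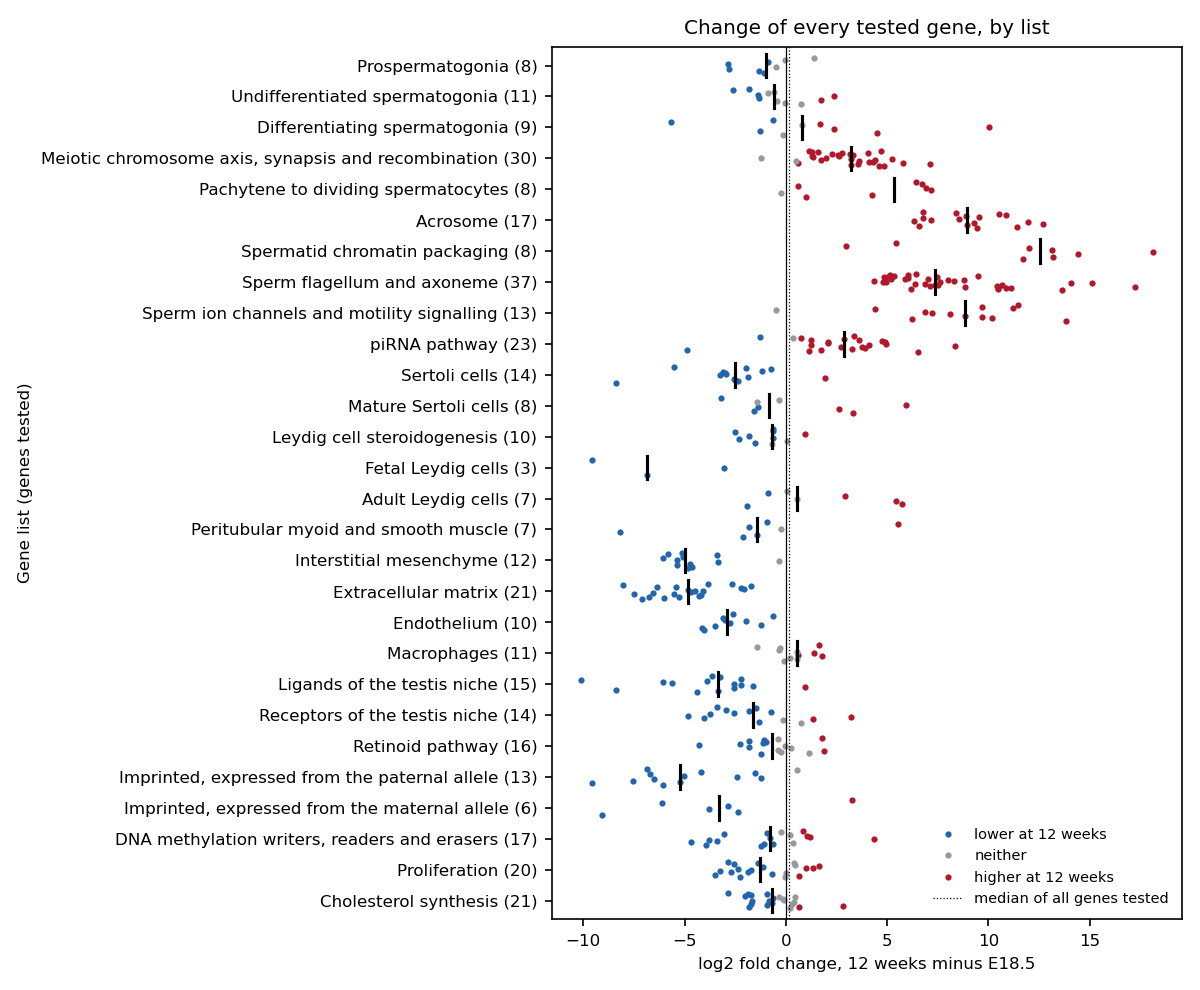
Log2 fold change (12 weeks minus E18.5; x axis) of every tested gene in 28 gene lists (y axis, with the number tested). Each point is a gene, coloured by its call, black bars are list medians and the dotted line is the median of all genes tested (0.15). The medians of the meiosis and spermatid lists lie to the right of 0, and those of the mesenchyme, matrix, endothelium and imprinted lists lie to the left.

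Several genes of the earliest germ cells were present at both ages. Of 8 tested prospermatogonial genes, 5 were lower and none was higher at 12 weeks (median log2 fold change -0.99). Dnmt3l, a cofactor of the de novo DNA methyltransferases, was 22.6, 27.8, 30.1 and 40.7 CPM at E18.5 and 16.6, 15.8, 17.1, 11.9 and 9.04 CPM at 12 weeks. Every 12-week library was below every E18.5 library (log2 fold change -1.10, SE 0.20, adjusted p = 0.0001). Pou5f1, the pluripotency factor OCT4, was 15.5, 12.5, 10.5 and 15.6 CPM at E18.5 and 7.85, 3.97, 2.69, 6.15 and 6.44 CPM at 12 weeks and was also lower without overlap (log2 fold change -1.31, edgeR adjusted p = 0.00035), a call that was lost with 39-week testes as the adult group (-0.76, edgeR adjusted p = 0.057). Lin28a, an RNA-binding protein of germ-line progenitors, was 10.8, 16.4, 8.76 and 9.56 CPM at E18.5 and 5.90, 4.72, 5.37, 5.34 and 9.71 CPM at 12 weeks. It fell (log2 fold change -0.88, SE 0.26, adjusted p = 0.005), but 12-week replicate 5 reached the E18.5 range, and with F2 natural testes as the adult group the change was -0.55, under the fold limit. The largest falls among the tested genes of this list were those of Sall4, a zinc-finger factor (52.3 ± 21.1 to 7.13 ± 1.07 CPM, mean ± SD, n = 4 and 5), and Utf1 (9.63 ± 5.74 to 1.35 ± 0.690 CPM). Nanos2, a translational repressor of the male fetal germ line, was at or under the 3-count floor in all 9 libraries and was not tested.

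Genes of undifferentiated spermatogonia moved in both directions, with 2 of 11 higher and 4 lower. Zbtb16, encoding the stem-cell factor PLZF, was 14.7, 26.7, 8.58 and 12.6 CPM at E18.5 and 13.1, 16.3, 17.5, 15.9 and 14.98 CPM at 12 weeks. The groups overlapped and the log2 fold change was -0.02 (SE 0.25, edgeR adjusted p = 0.94), with a sign that changed with the scaling, and it was called lower without the composition factor (-0.77, edgeR adjusted p = 0.0084). Gfra1, the receptor subunit for GDNF, was 7.65, 14.9, 3.85 and 3.77 CPM at E18.5 and 16.3, 13.2, 7.62, 16.4 and 11.9 CPM at 12 weeks. It did not pass (log2 fold change 0.76, SE 0.36, adjusted p = 0.066), but it was called higher under 9 alternatives, with changes of 0.80 to 1.35 and adjusted p-values of 0.0010 to 0.039. These were DESeq2 size factors, the DESeq2 Wald test, TMM from genes of at least 10 counts and that count as a filter. Others were the replicate block, all 20 F1 testis libraries of both ages (IVF included) and 39-week testes as the adult group. The last were the omission of E18.5 replicate 2, the highest of its group, or of 12-week replicate 3. Id4, a transcriptional regulator marking stem cells, was 14.4, 16.4, 8.58 and 7.54 CPM at E18.5 and 44.3, 33.8, 39.1, 39.6 and 40.9 CPM at 12 weeks and rose without overlap (log2 fold change 1.73, SE 0.19, adjusted p = 3e-07). Foxo1, another regulator of stem-cell maintenance, fell from 109 ± 16.8 to 17.7 ± 1.78 CPM (log2 fold change -2.62).

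Among 9 genes of differentiating spermatogonia, 4 were higher and 3 lower, and the list's median of 0.78 turned to -0.47 when 10 counts were required in every library. Kit, the receptor for stem cell factor, was 29.9, 34.5, 34.2 and 33.9 CPM at E18.5 and 29.9, 30.7, 34.9, 29.1 and 25.5 CPM at 12 weeks and overlapped between the ages (log2 fold change -0.14, edgeR adjusted p = 0.28); its sign changed with the scaling, and it was called lower without the composition factor (-0.90, edgeR adjusted p = 4.6e-06). Stra8, induced by retinoic acid at the entry to meiosis, was 0.373, 1.28, 0 and 0 CPM at E18.5 and 12.3, 9.79, 11.3, 7.86 and 13.2 CPM at 12 weeks. It was near the counting floor in all E18.5 libraries and above it in all 12-week libraries (log2 fold change 4.52, SE 0.51, adjusted p = 4e-07). Dmrtb1, which controls the switch from mitosis to meiosis, rose from 0.639 ± 0.532 to 754 ± 86.4 CPM. Ccnd2, a G1 cyclin that many cell types express, fell from 798 ± 135 to 15.7 ± 2.53 CPM.

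Genes of the meiotic chromosome axis, synapsis and recombination were higher at 12 weeks in 28 of 30 cases and lower in none, against 41.7% of all genes, with a median log2 fold change of 3.20. Their summed level was 226 to 282 CPM at E18.5 and 3162 to 3339 CPM at 12 weeks. Sycp3, a protein of the chromosome axis, was 8.40, 6.74, 7.71 and 9.81 CPM at E18.5 and 69.8, 80.4, 76.8, 77.4 and 75.4 CPM at 12 weeks. The ages did not overlap (log2 fold change 3.23, SE 0.13, adjusted p = 3.2e-13). Sycp1, which zips homologous axes together, was 5.22, 9.15, 4.38 and 3.52 CPM at E18.5 and 163, 132, 146, 123 and 142 CPM at 12 weeks, again without overlap (log2 fold change 4.61). Hormad1, which marks unsynapsed axes, was 9.33, 4.66, 10.5 and 11.8 CPM at E18.5 and 80.1, 81.6, 88.3, 86.7 and 78.7 CPM at 12 weeks (log2 fold change 3.22). Dmc1, the meiotic recombinase, rose less, with 3.36, 4.66, 3.85 and 5.53 CPM at E18.5 and 12.5, 14.0, 15.6, 13.3 and 17.5 CPM at 12 weeks (log2 fold change 1.75, SE 0.21). The largest rise of the list was that of Syce1, of the synaptonemal complex central element (3.203 ± 1.23 to 440.1 ± 36.8 CPM), and the 2 members that did not pass were Rad21l and Mei4, both under 5 CPM at both ages. Meiotic transcripts were thus not absent at E18.5: Stag3, a cohesin subunit, was at 70.6 CPM there and at 858 CPM at 12 weeks.

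Of 8 genes of later spermatocytes 7 were higher and none was lower (median 5.33). With at least 10 counts required in every library, which leaves 5 of these genes, the median was 1.16, and without genes that the tables may count differently it was 4.23. Mybl1, encoding the pachytene transcription factor A-MYB, was 44.6, 58.3, 42.0 and 47.8 CPM at E18.5 and 101, 91.6, 86.5, 99.2 and 101 CPM at 12 weeks. It rose without overlap by a small amount (log2 fold change 0.99, SE 0.11, adjusted p = 2.2e-07), a call that was lost without the composition factor (log2 fold change 0.23) or with 39-week testes as the adult group (0.23). Tcfl5, a basic helix-loop-helix factor of spermatocytes that binds E-box sequences, was 22.0, 24.9, 21.7 and 19.9 CPM at E18.5 and 417, 414, 389, 445 and 435 CPM at 12 weeks, with a log2 fold change of 4.24. Ccna1, the cyclin of the meiotic divisions, was 2.05, 0.642, 0.350 and 3.02 CPM at E18.5 and 225, 228, 175, 188 and 189 CPM at 12 weeks, and Boll, a relative of DAZ proteins, rose from 1.22 ± 0.580 to 109.6 ± 6.24 CPM. Hspa2, a testis heat shock protein, was the most abundant of the list at 12 weeks (20.5 ± 3.68 to 2436 ± 93.3 CPM).

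**Figure D2:**
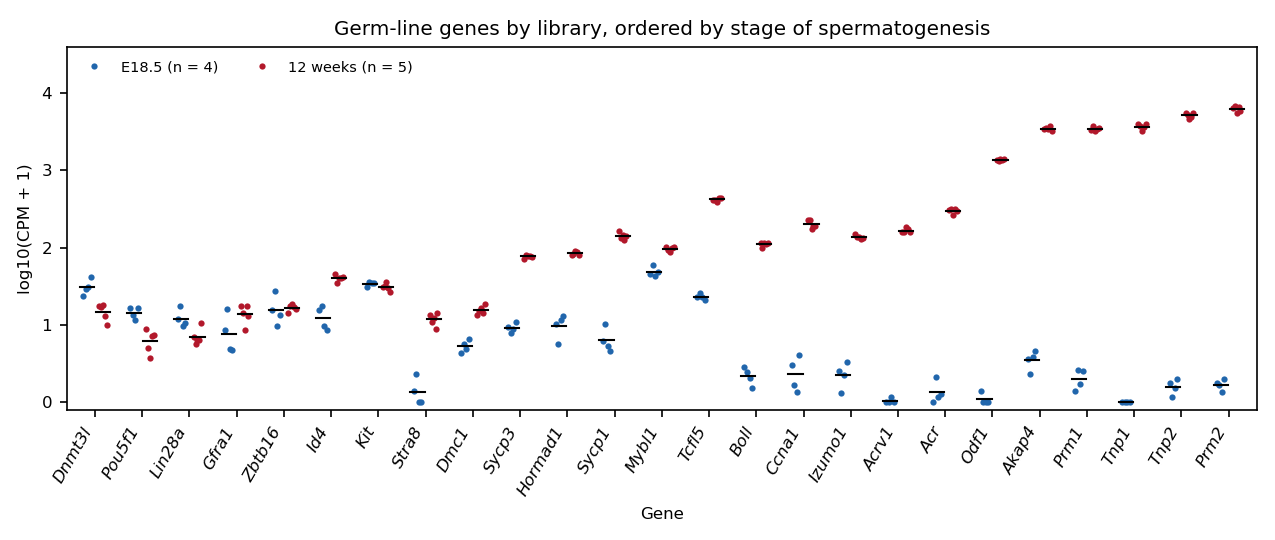
Level of 25 germ-line genes (x axis, in order of stage) in each library as log10(CPM + 1) (y axis). Points are the 4 E18.5 and 5 12-week libraries and black bars are group means. Stem-cell genes on the left overlap or lie close together, and genes of spermatids on the right go from near 0 to the highest levels plotted.

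All of the 17 tested acrosome genes, all 8 of spermatid chromatin packaging and all 37 of the flagellum and axoneme were higher at 12 weeks and over 4-fold, as were 12 of 13 genes of sperm ion channels and motility signalling, against 26.3% of all genes at that limit. In each of these 74 rises every 12-week library was above every E18.5 library. Since such genes enter the test through their adult level, the count describes the adult testis and has no further weight. The median log2 fold changes were 8.94, 12.57, 7.37 and 8.87, or 8.53, 11.85, 7.37 and 8.11 with genes listed at 0 at E18.5 set to the 3-count floor. The 8 remaining packaging symbols and 3 of the flagellum symbols were not listed in both tables.

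Acr, the acrosomal protease acrosin, was 0, 1.12, 0.175 and 0.251 CPM at E18.5 and 303, 313, 265, 312 and 296 CPM at 12 weeks. Izumo1, the sperm protein that binds the egg receptor, was 1.49, 0.321, 1.23 and 2.26 CPM at E18.5 and 150.4, 136, 135, 128 and 134 CPM at 12 weeks. Acrv1, of the acrosomal matrix, had 1 count over all E18.5 libraries and 156, 156, 184, 172 and 158 CPM at 12 weeks, a ratio of 3503 (95% exact Poisson interval 629 to 138350.0). For these 3 genes no E18.5 library came within 50-fold of the adult level. Spaca1, needed for the shape of the acrosome, went from 0.275 ± 0.330 to 122 ± 6.30 CPM.

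Most genes that package sperm chromatin were listed at or near 0 at E18.5, which is not read as low RNA by itself, and were abundant at 12 weeks. Tnp1, transition protein 1, was listed at 0 in all 4 E18.5 libraries and was 3982, 3743, 3215, 3626 and 4038 CPM at 12 weeks, at least 6411-fold above the E18.5 floor of 3 counts per library. Prm2, protamine 2, was 0.746, 0.642, 0.350 and 1.01 CPM at E18.5 and 6529, 6907, 5613, 6579 and 5811 CPM at 12 weeks (log2 fold change 13.19, SE 0.17, adjusted p = 1.1e-17). Prm1 and Tnp2, its partners in chromatin condensation, reached 3486 and 5206 CPM. The traces at E18.5, 0.350 to 1.01 CPM for Prm2, lay near the counting floor. Brdt, a bromodomain protein that acts from meiosis onward, was the least changed of the list and was already 48.9, 40.5, 46.6 and 57.8 CPM at E18.5 (48.4 ± 7.20 to 379 ± 15.9 CPM). Chd5, a chromatin remodeller of spermatids, rose from 19.8 ± 5.67 to 845 ± 22.0 CPM.

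In the flagellum, Akap4, the main protein of the fibrous sheath, was 2.61, 1.28, 2.80 and 3.52 CPM at E18.5 and 3443, 3600.1, 3410.0, 3757 and 3276 CPM at 12 weeks (log2 fold change 10.47, SE 0.16, adjusted p = 1.5e-17). Smcp, of the mitochondrial capsule, was listed at 0 at E18.5 and was 1953, 1974, 1886, 2068 and 2115 CPM at 12 weeks, at least 3445-fold above the floor. Odf1, of the outer dense fibres, had 2 counts at E18.5 and 1349.5, 1306, 1393, 1353 and 1393 CPM at 12 weeks. The adult levels of these 3 genes varied by less than 15% between libraries. Dnah1, a dynein heavy chain, rose from 18.4 ± 1.42 to 501 ± 27.3 CPM and Odf2, also a centrosome protein, from 65.6 ± 7.35 to 4808 ± 111 CPM. Catsper1, the pore of the sperm calcium channel, was listed at 0 at E18.5 and was 179.8, 178, 206, 203 and 182 CPM at 12 weeks, at least 327-fold above the floor. Hvcn1, a proton channel, was the exception of its list (3.22 ± 0.971 to 2.299 ± 0.417 CPM, adjusted p = 0.18 with edgeR).

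The piRNA pathway, in which PIWI proteins and small RNAs silence transposons in germ cells, differed by member. Of 23 tested genes 20 were higher and 2 lower, with a median log2 fold change of 2.88. Piwil4, encoding the fetal nuclear protein MIWI2, was 12.7, 12.5, 25.05 and 24.4 CPM at E18.5 and 0.805, 0.616, 0.520, 0.371 and 0.753 CPM at 12 weeks. It fell without overlap (log2 fold change -4.89, SE 0.32, adjusted p = 3.1e-10). Piwil1, encoding MIWI of pachytene spermatocytes and spermatids, was 7.09, 6.42, 7.88 and 10.3 CPM at E18.5 and 733, 705, 725, 713 and 753 CPM at 12 weeks and rose without overlap (log2 fold change 6.54, SE 0.12, adjusted p = 4.3e-17). Piwil2, encoding MILI, which acts at both stages, was 173, 119, 129 and 143 CPM at E18.5 and 336, 307, 345, 306 and 264 CPM at 12 weeks. It rose little (log2 fold change 1.14), and without the composition factor the change was 0.39, under the fold limit. The other fall was that of Morc1, which acts in fetal silencing of transposons (11.3 ± 2.62 to 4.64 ± 1.18 CPM), and Tdrd6, of the chromatoid body, rose most (5.33 ± 1.83 to 1692 ± 70.6 CPM). Mael and Ddx4 (the germ-cell helicase VASA) went from 89.4 ± 15.2 to 1328 ± 64.8 CPM and 51.4 ± 7.79 to 492 ± 22.0 CPM.

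Promoters of these lists were searched for the E-box CACGTG, which reads the same on both strands and is the core bound by many helix-loop-helix factors. Sequences of 300 bases (250 before to 50 after each start) were taken from RefSeq (GRCm38.p6). CACGTG was found at 8 of 25 meiotic genes with a promoter in the table (32.0%) and at 8 of 17 piRNA genes (47.1%), against 10.7% of the 13333 tested genes and 8.09% of all 27025 genes with a promoter. Among genes higher over 4-fold it was found at 8.54%, and among genes lower over 4-fold at 10.2%. The promoters of Sycp3, Hormad1, Tdrd1 (a Tudor protein of the piRNA pathway, 42.9 ± 2.69 to 278 ± 7.66 CPM) and Ddx4 are shown as the 250 bases before the start, 5′ to 3′, because they carry the E-box (capitals) and their genes rose without overlap between the ages. They lie at Sycp3 chr10:88459337-88459586 on the plus strand, Hormad1 chr3:95559427-95559676 on the plus strand, Tdrd1 chr19:56825959-56826208 on the plus strand and Ddx4 chr13:112652311-112652560 on the minus strand.
Sycp3: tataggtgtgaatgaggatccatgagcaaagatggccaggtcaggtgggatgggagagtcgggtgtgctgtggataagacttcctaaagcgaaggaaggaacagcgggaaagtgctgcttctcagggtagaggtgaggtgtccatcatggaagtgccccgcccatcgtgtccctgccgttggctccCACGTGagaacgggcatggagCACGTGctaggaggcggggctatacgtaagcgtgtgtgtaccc
Hormad1: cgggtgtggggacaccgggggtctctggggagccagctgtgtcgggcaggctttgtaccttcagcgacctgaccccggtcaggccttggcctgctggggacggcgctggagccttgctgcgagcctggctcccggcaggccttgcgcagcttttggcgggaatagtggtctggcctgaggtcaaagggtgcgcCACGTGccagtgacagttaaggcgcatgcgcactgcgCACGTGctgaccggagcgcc
Tdrd1: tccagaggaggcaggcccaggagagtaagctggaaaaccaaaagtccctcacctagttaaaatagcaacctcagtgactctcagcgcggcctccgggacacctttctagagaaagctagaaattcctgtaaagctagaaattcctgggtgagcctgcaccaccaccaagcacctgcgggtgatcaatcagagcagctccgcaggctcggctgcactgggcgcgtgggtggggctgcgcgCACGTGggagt
Ddx4: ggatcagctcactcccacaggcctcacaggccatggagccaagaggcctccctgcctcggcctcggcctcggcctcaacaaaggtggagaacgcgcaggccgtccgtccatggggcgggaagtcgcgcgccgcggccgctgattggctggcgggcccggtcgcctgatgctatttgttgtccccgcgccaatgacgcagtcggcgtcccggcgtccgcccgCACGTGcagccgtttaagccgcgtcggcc
A match describes the letters of the window and not a bound site.

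GTTGCCA, a part of the X-box that RFX factors bind at many cilium genes, was searched on both strands. It was found at 5 of 34 flagellum genes (14.7%), against 5.21% of tested genes. The shares were 8.71% of those higher over 4-fold and 3.69% of those lower over 4-fold. In other lists it was found at 1 of 15 acrosome genes, 0 of 9 genes of sperm ion channels and 3 of 14 DNA methylation genes (21.4%). It is shown (capitals, on either strand) for Tekt1, a tektin filament of the axoneme (3.05 ± 2.39 to 328 ± 13.9 CPM), and Drc1, of the nexin-dynein regulatory complex (2.57 ± 0.616 to 167 ± 13.1 CPM), in the 250 bases before the start at Tekt1 chr11:72361883-72362132 on the minus strand and Drc1 chr5:30281143-30281392 on the plus strand.
Tekt1: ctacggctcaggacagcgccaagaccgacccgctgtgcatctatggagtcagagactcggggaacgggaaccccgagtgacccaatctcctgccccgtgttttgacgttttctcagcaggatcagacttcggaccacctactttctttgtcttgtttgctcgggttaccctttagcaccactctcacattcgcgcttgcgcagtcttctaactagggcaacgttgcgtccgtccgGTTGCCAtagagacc
Drc1: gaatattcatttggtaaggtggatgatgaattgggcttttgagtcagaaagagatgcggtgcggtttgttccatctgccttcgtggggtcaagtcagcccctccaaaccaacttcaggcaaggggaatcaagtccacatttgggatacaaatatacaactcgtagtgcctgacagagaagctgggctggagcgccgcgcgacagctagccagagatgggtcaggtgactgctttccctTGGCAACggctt
The cAMP response element TGACGTCA was found at 3.08% of genes higher over 4-fold, 1.72% of those lower over 4-fold and 3.19% of tested genes, and GGCAGTT, a MYB element, at 6.50%, 4.17% and 4.69%.

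Somatic genes went mostly the other way. Of 14 Sertoli cell genes, 13 were lower and 1 higher at 12 weeks, against 35.7% of all genes that were lower, with a median log2 fold change of -2.53. Amh, the hormone that removes the female ducts in the fetus, was 1305, 1011, 892 and 995 CPM at E18.5 and 2.41, 2.40, 2.77, 3.71 and 4.27 CPM at 12 weeks. It fell in every adult library to under 5 CPM (log2 fold change -8.41, SE 0.17, adjusted p = 2.1e-16). Sox9, the factor that sets Sertoli cell fate, was 240.0, 194, 165 and 161 CPM at E18.5 and 35.4, 36.0, 44.4, 38.8 and 31.6 CPM at 12 weeks, and Dhh, the hedgehog ligand of Sertoli cells, was 219, 188, 136 and 155 CPM at E18.5 and 28.1, 31.6, 26.1, 32.4 and 27.5 CPM at 12 weeks. Both fell without overlap, by 2.35 and 2.58 on the log2 scale. Fshr, the FSH receptor, fell from 19.8 ± 2.11 to 2.57 ± 0.820 CPM. The rise was that of Cldn11, a claudin of the tight junctions between Sertoli cells, from 22.6 ± 7.20 to 86.7 ± 6.77 CPM. Clu, a secreted chaperone abundant in Sertoli cells, was 1254, 1016, 931 and 872 CPM at E18.5 and 765, 763, 914, 868 and 770.2 CPM at 12 weeks, and the groups did not differ past the fold limit (log2 fold change -0.32), although without the composition factor the change was -1.07.

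Genes of mature Sertoli cells were mixed, with 3 of 8 higher and 3 lower; the median of -0.86 became 0.29 without E18.5 replicate 1. Rhox5, an androgen-dependent homeobox gene, was 0.373, 0.963, 2.10 and 0.754 CPM at E18.5 and 10.9, 12.0, 13.3, 10.9 and 6.78 CPM at 12 weeks (log2 fold change 3.31, SE 0.37, adjusted p = 3.4e-07). Tsx and Gata1 rose from 0.465 ± 0.715 to 23.7 ± 2.41 CPM and 2.15 ± 1.46 to 13.4 ± 1.75 CPM. Gja1, the gap junction protein connexin 43, fell from 683 ± 129 to 73.4 ± 8.37 CPM. Trf, transferrin, was 170.2 CPM in E18.5 replicate 1 and 8.76 to 13.8 CPM in the other 3, and did not pass the test.

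**Figure D3:**
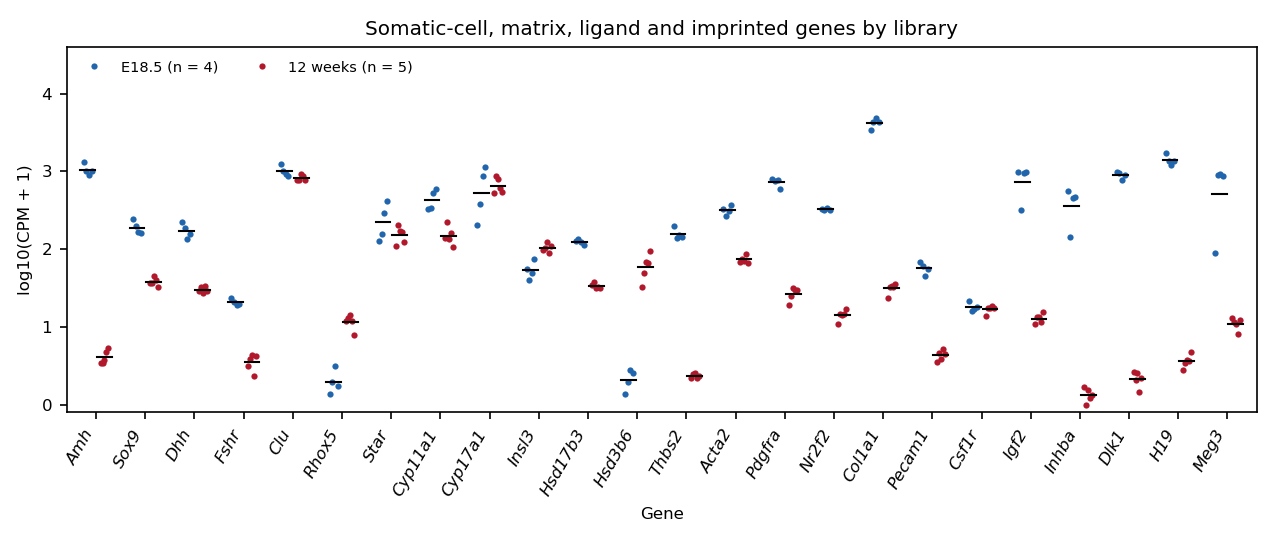
Level of 24 genes of somatic cells, matrix, ligands and imprinted loci (x axis) in each library as log10(CPM + 1) (y axis). Points are the 4 E18.5 and 5 12-week libraries and black bars are group means. Most genes are lower at 12 weeks, Rhox5, Insl3 and Hsd3b6 are higher, and an E18.5 library stands below the others for Igf2 and Inhba (replicate 2) and for Meg3 (replicate 1).

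Leydig cell genes did not follow 1 direction. In the list of steroidogenesis 7 of 10 were lower and 1 was higher. Cyp17a1, the enzyme that turns progestins into androgens, was 202, 384, 858 and 1122 CPM at E18.5 and 530.1, 863, 791, 609 and 543 CPM at 12 weeks. The E18.5 libraries spread over more than 5-fold and enclosed the adult range (log2 fold change 0.06, SE 0.48, edgeR adjusted p = 0.91), and the sign changed when single libraries were left out. Star, the cholesterol carrier of the mitochondrion, was 127, 154, 289 and 412 CPM at E18.5 and 108, 200.2, 168, 167 and 122 CPM at 12 weeks and did not pass (edgeR adjusted p = 0.11); it was called lower without E18.5 replicate 1 (-0.88), without the composition factor (-1.46) and with 39-week testes as the adult group (-1.01). Cyp11a1, the side-chain cleavage enzyme, was 323, 338, 518 and 593 CPM at E18.5 and 139.8, 222, 133, 161 and 107 CPM at 12 weeks and fell without overlap (log2 fold change -1.54). For Star, Cyp11a1 and Cyp17a1 E18.5 replicates 3 and 4 were above replicates 1 and 2. Genes of the adrenal cortex were likewise higher in those replicates. Cyp21a1, the 21-hydroxylase, was 21.3, 29.2, 58.2 and 109.9 CPM and Cyp11b1, the 11-beta-hydroxylase, 20.2, 10.9, 34.5 and 32.7 CPM at E18.5, while Cyp11b2, the aldosterone synthase, was at 0.175 CPM. The summed level of the 3 adrenal genes was 40.1 to 143 CPM at E18.5 and 3.49 to 17.7 CPM at 12 weeks, and their part in the steroidogenic values was not tested.

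Fetal and adult Leydig cells are told apart by further markers. Thbs2, a matrix glycoprotein of fetal Leydig cells, was 196, 137, 151 and 142 CPM at E18.5 and 1.21, 1.51, 1.56, 1.19 and 1.34 CPM at 12 weeks (log2 fold change -6.84, SE 0.15, adjusted p = 2.4e-16). Hsd3b6, the 3-beta-hydroxysteroid dehydrogenase of adult Leydig cells, was 0.373, 0.963, 1.75 and 1.51 CPM at E18.5 and 31.3, 48.6, 67.0, 65.7 and 93.3 CPM at 12 weeks. The adult libraries differed by up to 3-fold among themselves but all lay above the fetal ones (log2 fold change 5.74, SE 0.44, adjusted p = 8.2e-08). Hsd3b1, a close relative of Hsd3b6 with which it could share reads, fell from 510.3 ± 127 to 103 ± 11.2 CPM. Sult1e1, the estrogen sulfotransferase, and Vcam1, an adhesion protein, rose from 0.349 ± 0.287 to 16.9 ± 6.72 CPM and 12.0 ± 3.28 to 92.5 ± 21.5 CPM. Hsd17b3, which makes testosterone from androstenedione, was 126, 133, 123 and 111 CPM at E18.5 and 33.1, 36.8, 30.3, 31.9 and 30.7 CPM at 12 weeks and fell (log2 fold change -1.92). Ptgds, a prostaglandin synthase, was 205, 188, 129 and 165 CPM at E18.5 and 230.0, 169, 199, 117 and 179 CPM at 12 weeks and overlapped between the ages, with a sign that changed with the scaling and when E18.5 replicate 3 or 12-week replicate 1 was left out. It was called lower without the composition factor (-0.70, edgeR adjusted p = 0.0021). Over the adult Leydig list 3 of 7 were higher and 2 lower, and its median of 0.56 became -0.20 without the composition factor. Insl3, the Leydig cell hormone of testis descent, was 54.5, 39.5, 48.0 and 72.7 CPM at E18.5 and 95.7, 101, 121, 87.1 and 109 CPM at 12 weeks. It rose without overlap (log2 fold change 0.95, SE 0.15, adjusted p = 2.2e-05), but the change was 0.19 (adjusted p = 0.29) without the composition factor and 0.56 against F2 adult testes, below the fold limit in both.

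Genes of connective tissue fell. All 21 genes of the extracellular matrix were lower, 20 of them over 4-fold, against 16.7% of all genes, with a median log2 fold change of -4.82, and their summed level was 22306 to 25316 CPM at E18.5 and 849 to 1019.8 CPM at 12 weeks. Col1a1, the main chain of fibrillar collagen, was 3390.3, 4286, 4825 and 4336 CPM at E18.5 and 22.8, 31.8, 32.1, 31.2 and 34.1 CPM at 12 weeks (log2 fold change -7.11, SE 0.14, adjusted p = 1.2e-16). Col3a1, of reticular fibres, was 3818, 3394, 3736 and 3258 CPM at E18.5 and 27.8, 29.0, 37.2, 36.8 and 32.9 CPM at 12 weeks. No adult library exceeded 38 CPM for either gene. Lox, which crosslinks collagen, fell from 235 ± 29.6 to 0.873 ± 0.362 CPM, and Sparc, a collagen-binding protein that Sertoli cells also make, fell by less (1736 ± 227 to 412 ± 35.2 CPM, log2 fold change -2.08).

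Among 12 genes of interstitial mesenchyme 11 were lower (median -4.96). Pdgfra, the PDGF receptor of stromal progenitors, was 808, 753, 774 and 593 CPM at E18.5 and 18.0, 24.0, 30.3, 28.6 and 29.1 CPM at 12 weeks (log2 fold change -4.82, SE 0.15, adjusted p = 5e-14), and Nr2f2, a nuclear receptor of the same cells, fell from 325 ± 11.8 to 13.3 ± 2.17 CPM. All 10 endothelial genes were lower (median -2.90), with Pecam1, a junction protein of vessels, at 66.4, 58.9, 44.7 and 54.6 CPM at E18.5 and 2.55, 3.56, 2.86, 4.22 and 3.51 CPM at 12 weeks. Of 7 myoid and smooth muscle genes 5 were lower, a count that includes Tagln. Acta2, smooth muscle actin, was 330.4, 264, 304 and 365 CPM at E18.5 and 67.9, 74.6, 70.1, 86.5 and 65.9 CPM at 12 weeks and Myh11, smooth muscle myosin, fell from 140.4 ± 7.52 to 52.1 ± 6.51 CPM. Actg2, smooth muscle gamma actin, rose from 5.70 ± 1.49 to 260.3 ± 24.7 CPM. Tagln, a smooth muscle actin-binding protein, went from 78.9 to 0.265 CPM but was under 1 CPM in all 62 libraries of the other count tables, and is not read. It was 1 of 20 genes with this pattern among those of at least 10 CPM at E18.5.

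Of 11 macrophage genes 4 were higher and none was lower, and the median of 0.53 became -0.22 without the composition factor. Csf1r, the receptor for CSF1, was 20.3, 15.1, 15.8 and 17.1 CPM at E18.5 and 12.9, 16.6, 16.2, 17.3 and 16.7 CPM at 12 weeks, and the groups overlapped, although without the composition factor it was called lower (-0.85, edgeR adjusted p = 9.1e-05). Mrc1, the mannose receptor of resident macrophages, rose from 10.3 ± 2.98 to 36.1 ± 3.96 CPM. Markers of neighbouring tissues differed in level. Those of the epididymis summed to 0.876 to 2.01 CPM at E18.5 and 3.81 to 6.53 CPM at 12 weeks, and the defining Lcn8 and Rnase9 were at 0 in all 9 libraries. The 7 skeletal muscle genes summed to 32.8 to 61.0 CPM at E18.5 and 3.85 to 6.57 CPM at 12 weeks, with Myod1 under the floor and Myh8, another of those 20 genes, included, and the 4 genes of mesonephros and kidney to 14.6 to 21.5 CPM at E18.5 and 21.5 to 28.1 CPM at 12 weeks.

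Of 15 ligands that pass between these cells 14 were lower and 1, Insl3, was higher (median -3.34). Gdnf, the Sertoli cell factor that sustains stem cells, was 67.5, 71.9, 46.6 and 70.9 CPM at E18.5 and 2.55, 3.76, 3.98, 2.67 and 2.09 CPM at 12 weeks (log2 fold change -4.41, SE 0.19, adjusted p = 1.1e-12). Kitl, the ligand of Kit, fell from 231 ± 21.5 to 22.8 ± 1.67 CPM. Inhba, the activin A subunit, was 562, 142, 448 and 461 CPM at E18.5 and 0.671, 0, 0.520, 0.222 and 0.335 CPM at 12 weeks. E18.5 replicate 2 was lowest in its group but far above every adult library (log2 fold change -10.13, SE 0.63, adjusted p = 5.1e-07), and without it the change was -10.41. Of 14 receptors 10 were lower and 2 higher (median -1.64). Ptch1, the hedgehog receptor and a target of its own pathway, was 337, 340.0, 319.8 and 295 CPM at E18.5 and 16.0, 20.1, 21.8, 20.7 and 20.3 CPM at 12 weeks (log2 fold change -4.03), and Gli1, another target, fell from 138 ± 44.4 to 3.31 ± 0.668 CPM. The receptors that rose were Amhr2, which binds AMH, and Rxfp2, which binds INSL3. Amhr2 was 105, 86.5, 67.8 and 61.9 CPM at E18.5 and 212, 203, 204, 223 and 187 CPM at 12 weeks (log2 fold change 1.35, SE 0.13, adjusted p = 5e-08), and its ligand Amh fell over the same interval, as given above. Rxfp2 was 1.87, 0.482, 4.38 and 2.77 CPM at E18.5 and 22.8, 24.6, 17.3, 17.3 and 25.02 CPM at 12 weeks (log2 fold change 3.19, SE 0.35, adjusted p = 3.8e-07).

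In the retinoid pathway, which times the entry to meiosis, 8 of 16 genes were lower and 2 higher. Cyp26b1, which degrades retinoic acid in the fetal testis, was 185, 208, 169 and 142 CPM at E18.5 and 65.2, 82.6, 83.3, 92.9 and 54.7 CPM at 12 weeks and fell (log2 fold change -1.22, SE 0.15, adjusted p = 1.6e-06). Aldh1a2, which makes retinoic acid, was 28.4, 26.3, 50.6 and 49.5 CPM at E18.5 and 148, 144, 129.8, 139 and 139 CPM at 12 weeks and rose (log2 fold change 1.87, SE 0.17, adjusted p = 8.5e-08). Both changes were without overlap. Among the receptors Rara, Rarb, Rarg and Rxra were lower, and Rxrg, near the floor at E18.5, was the other gene that rose (0.378 ± 0.439 to 1.19 ± 0.821 CPM).

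Imprinted genes, which are expressed from 1 parental allele and regulate fetal growth, were mostly lower. Of 13 tested genes expressed from the paternal allele 12 were lower (median -5.25), and of 6 expressed from the maternal allele 5 were lower (median -3.31), against 35.7% of all genes. The counts give no allele of origin. H19, a noncoding RNA, was 1702, 1364, 1220.0 and 1356 CPM at E18.5 and 1.81, 2.40, 2.77, 2.67 and 3.68 CPM at 12 weeks (log2 fold change -9.06, SE 0.16, adjusted p = 4e-17). Dlk1, a Notch-like ligand of fetal mesenchyme and Leydig cells, was 974, 962, 781 and 892 CPM at E18.5 and 1.61, 1.09, 1.56, 0.445 and 1.17 CPM at 12 weeks (log2 fold change -9.57, SE 0.18, adjusted p = 6e-17). Mest, a hydrolase-like protein of embryonic mesoderm, fell from 322 ± 20.9 to 1.73 ± 0.440 CPM, and Peg3, a zinc-finger protein, from 393 ± 54.2 to 10.3 ± 2.25 CPM. Cdkn1c, a brake on the cell cycle, fell less (113 ± 7.51 to 21.8 ± 3.33 CPM, log2 fold change -2.38). Slc22a18 was the gene that rose (1.53 ± 1.60 to 13.8 ± 1.09 CPM).

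Single fetal libraries stood apart at some of these loci. Igf2, the fetal growth factor, was 972, 316, 956 and 970.1 CPM at E18.5 and 9.73, 12.5, 12.3, 10.4 and 14.4 CPM at 12 weeks. Its change was -6.09 with all libraries and -6.35 without E18.5 replicate 2. Meg3, a noncoding RNA of the locus that holds Dlk1, was 88.6, 885, 921 and 883 CPM at E18.5 and 11.8, 10.5, 9.96, 7.04 and 11.4 CPM at 12 weeks. Its change was -6.09 with all libraries and -6.45 without E18.5 replicate 1. H19 and Dlk1, the neighbours of Igf2 and Meg3, showed no such low library. Of the 1816 genes with a mean of at least 100 CPM at E18.5, 3 were more than 3-fold lower in replicate 1 than in every other E18.5 library (Meg3, Leng8 and Pnisr) and 2 in replicate 2 (Igf2 and Inhba).

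Of 17 genes that write, read or erase DNA methylation, 10 were lower and 4 higher (median -0.78). Dnmt3a, a de novo methyltransferase, was 446, 458, 428 and 403 CPM at E18.5 and 28.4, 25.05, 30.7, 27.1 and 29.8 CPM at 12 weeks and fell without overlap (log2 fold change -3.94, SE 0.09, adjusted p = 1.9e-16). Dnmt1, the maintenance enzyme, fell from 214 ± 14.4 to 90.4 ± 5.42 CPM, and Tet1, Tet2 and Tet3, which oxidise methylcytosine, fell by 4.67, 3.38 and 3.77 on the log2 scale. Mbd2, Mbd3, Trim28 and Tdg rose. Uhrf1, the partner of DNMT1, was 124 ± 7.98 to 159 ± 7.87 CPM and did not pass the fold limit.

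In the cell cycle list 12 of 20 genes were lower and 4 higher. Mki67, expressed by all dividing cells, was 418, 482, 446 and 355 CPM at E18.5 and 81.7, 81.5, 94.8, 96.8 and 95.5 CPM at 12 weeks (log2 fold change -2.24, SE 0.10, adjusted p = 9.9e-13). Mcm2 to Mcm6, of the replicative helicase, fell by 1.73 to 3.27 on the log2 scale, whereas their partner Mcm7 rose from 139.9 ± 13.7 to 278 ± 15.5 CPM. The other rises were Bub1, Plk1 and Ccnb1, which act in the division of chromosomes in mitosis and meiosis, from 54.3 ± 7.02 to 137 ± 8.64 CPM, 60.2 ± 11.1 to 190.0 ± 25.4 CPM and 58.1 ± 6.27 to 89.5 ± 16.2 CPM. For Ccnb1 the change was smaller than the step of the composition factors (-0.76 on the log2 scale), so its direction can be set by the scaling. The E2F element TTTGGCGC was found at 3 of 17 promoters of this list (17.6%) and at 0.990% of tested genes. Among genes lower over 4-fold it was found at 0.862%, and among genes higher over 4-fold at 0.820%. It is shown in capitals for Mcm6 (154 ± 18.97 to 30.5 ± 5.58 CPM), which carries it 2 times in the 250 bases before the start at Mcm6 chr1:128359706-128359955 on the minus strand.
Mcm6: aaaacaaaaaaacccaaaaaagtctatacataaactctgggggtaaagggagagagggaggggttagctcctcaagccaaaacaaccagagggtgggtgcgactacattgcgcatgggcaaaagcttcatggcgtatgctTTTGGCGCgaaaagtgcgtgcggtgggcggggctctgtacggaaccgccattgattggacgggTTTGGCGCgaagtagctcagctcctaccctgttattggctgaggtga

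Of 21 cholesterol synthesis genes 12 were lower and 2 higher. Hmgcs1, at the entry to the pathway, was 395, 331, 421 and 493 CPM at E18.5 and 99.3, 121, 118, 115 and 128 CPM at 12 weeks and fell (log2 fold change -1.82, SE 0.11, adjusted p = 6.1e-11). Fdft1, squalene synthase, rose from 53.8 ± 8.70 to 385 ± 26.3 CPM, as did Sqle, the next enzyme (105 ± 23.4 to 162 ± 8.66 CPM). The change of Sqle was smaller than the step of the composition factors (-0.76 on the log2 scale), so its direction can be set by the scaling. Cyp51, the lanosterol demethylase, was 75.4, 72.7, 134 and 146 CPM at E18.5 and 117, 108, 112, 193 and 121 CPM at 12 weeks and overlapped, with 12-week replicate 4 above the other adult libraries. With F2 natural testes as the adult group it was called higher (0.70, edgeR adjusted p = 0.0043).

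Germ cells replace many housekeeping proteins with relatives expressed mainly in the testis, and 23 such pairs were followed. The germ-cell partner was higher at 12 weeks in 22 pairs and lower in none, against 41.7% of all genes that were higher. With at least 10 counts in every library only 11 germ-cell partners remained. Many thus enter the test through their adult level, and their count describes the adult testis and has no further weight. The somatic partner was lower in 15, higher in 3 and neither in 5, against 35.7% of all genes that were lower. In all 15 pairs with a lower somatic partner the germ-cell partner was higher, which has no weight of its own since 22 of the 23 rose. As levels per kilobase of exon (GENCODE vM21, all exons of a gene merged), the germ-cell partner held over 50% of the pair in 20 pairs at 12 weeks and in 2 at E18.5 by group medians. Reads could be shared within pairs of close sequence, so the shares are approximate.

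In glycolysis, Pgk1, phosphoglycerate kinase 1, was 42.2, 30.5, 32.2 and 32.9 CPM at E18.5 and 7.85, 6.09, 7.97, 8.89 and 8.62 CPM at 12 weeks. Pgk2, its sperm relative, was listed at 0 at E18.5 and was 1346, 1239, 1219.7, 1209.9 and 1228 CPM at 12 weeks, at least 2151-fold above the floor. Pgk1 fell without overlap (log2 fold change -2.13, SE 0.16, edgeR adjusted p = 1.6e-09). By the listed counts the share of Pgk2 was 0% at E18.5 and 99.5% to 99.6% at 12 weeks. Gapdh fell from 271 ± 77.8 to 69.5 ± 8.62 CPM and Gapdhs, anchored to the fibrous sheath, rose from 3.89 ± 1.80 to 2344 ± 72.4 CPM. Ldha, lactate dehydrogenase A, was 334, 233, 199.5 and 199 CPM at E18.5 and 1221, 1095, 1122, 1126 and 1193 CPM at 12 weeks and rose with Ldhc, its sperm form, which was 1.87, 2.41, 1.93 and 3.02 CPM at E18.5 and 2768, 2403, 2371, 2792 and 2818 CPM at 12 weeks. The share of Ldhc was 1.16% to 3.08% at E18.5 and 81.6% to 83.9% at 12 weeks.

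In the mitochondrion, Pdha1, a subunit of pyruvate dehydrogenase, was 62.3, 53.6, 59.2 and 55.1 CPM at E18.5 and 7.71, 6.16, 7.71, 5.04 and 6.53 CPM at 12 weeks, and Pdha2 was 2.24, 2.89, 1.40 and 0.503 CPM at E18.5 and 318, 330.1, 291, 302 and 325 CPM at 12 weeks. The share of Pdha2 was 1.43% to 7.88% at E18.5 and 98.4% to 99.0% at 12 weeks. Cycs, cytochrome c, fell little (54.2 ± 9.96 to 30.6 ± 3.196 CPM) while Cyct rose from 1.30 ± 0.569 to 51.9 ± 6.37 CPM. Slc25a4, an ADP/ATP carrier, fell from 202 ± 23.1 to 39.6 ± 3.54 CPM. Slc25a31, its germ-cell form, was 31.3, 27.1, 20.7 and 32.2 CPM at E18.5 and 55.2, 61.2, 59.9, 56.5 and 66.3 CPM at 12 weeks, a small rise (log2 fold change 1.11, SE 0.13, adjusted p = 5.5e-07) that was 0.35 without the composition factor, under the fold limit. Cstf2 and Cstf2t, of mRNA 3′ end processing, were the pair in which neither partner changed past the limits (81.8 ± 10.9 to 96.4 ± 7.66 CPM and 79.5 ± 3.90 to 90.5 ± 5.24 CPM). The somatic partners that rose were Ldha, Tbp, the TATA-binding protein (25.6 ± 5.91 to 127 ± 21.4 CPM), and Pabpc1, a poly(A)-binding protein (980.0 ± 81.4 to 4456 ± 177 CPM).

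**Figure D4:**
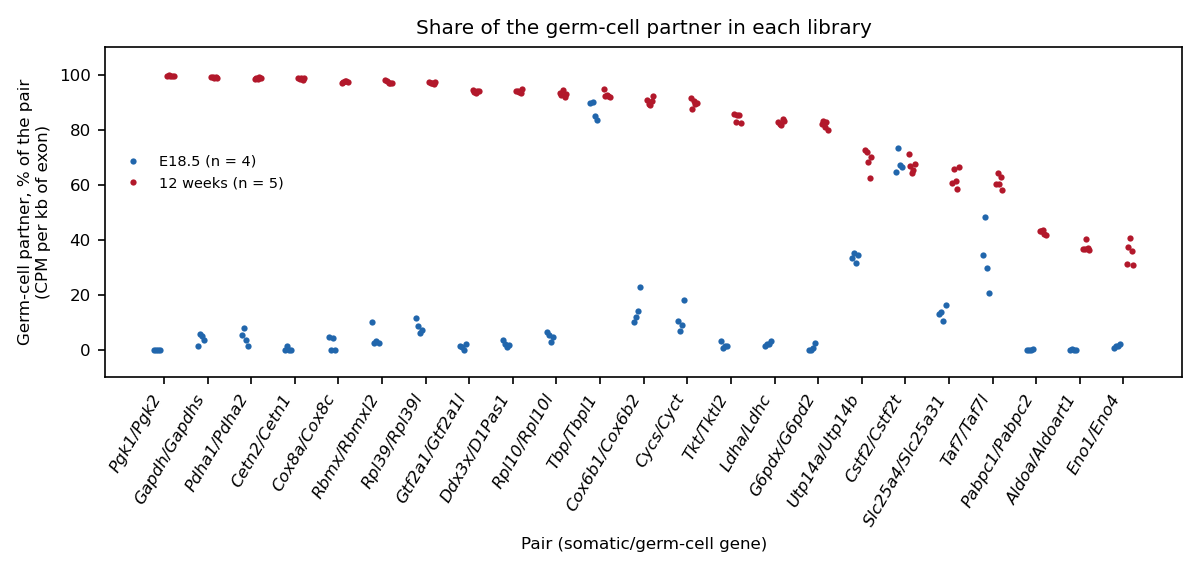
Share of the germ-cell partner in the summed level per kilobase of each of 23 pairs (y axis, %) in each library. Points are the 4 E18.5 and 5 12-week libraries, and pairs are ordered by the 12-week median. In 20 pairs the 12-week median is over 50%, and Cstf2/Cstf2t stays in place.

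Of the 10 pairs whose somatic gene is X-linked 9 had a lower somatic partner, and in all 10 the germ-cell partner is autosomal. X-linked genes as a whole were lower more often than autosomal genes. Of 676 X-linked genes tested, 59.0% were lower and 26.5% higher, with a median log2 fold change of -1.32, whereas of 16308 autosomal genes 34.7% were lower and 42.3% higher, with a median of 0.20. The medians of single autosomes ranged from -0.23 to 0.50. The X held 3.61% to 3.82% of the CPM of each library at E18.5 and 1.17% to 1.29% at 12 weeks. X-linked genes also rose: Cylc1, cylicin 1 of the sperm head, Cypt1 and Tex13a were listed at 0 at E18.5 and reached 153, 206 and 112 CPM, and among the falls were Gpc3, a glypican of growth control (279.8 ± 25.8 to 1.11 ± 0.720 CPM), and Agtr2, an angiotensin receptor (141 ± 52.4 to 0.468 ± 0.292 CPM). The choice of these 5 X-linked genes was made with their values in view. On the Y, 12 of 16 tested genes were higher and 3 lower. The Y nevertheless held 0.029% to 0.035% of the CPM of each library at E18.5 and 0.012% to 0.013% at 12 weeks. Zfy2, which acts in meiosis and spermatids, rose from 0.286 ± 0.335 to 9.54 ± 1.06 CPM, while Ddx3y, Kdm5d and Uty, which most tissues express, fell by 2.80, 3.13 and 2.04 on the log2 scale.

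**Figure D5:**
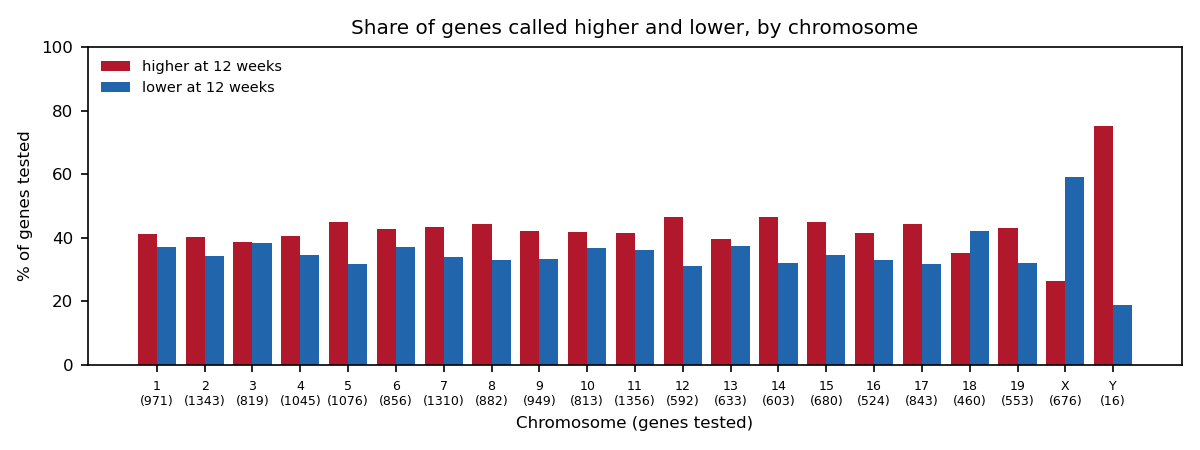
Percentage of tested genes (y axis) that were higher (red) or lower (blue) at 12 weeks on each chromosome (x axis, with the number tested). On the X 59.0% were lower, against 31.3% to 42.2% on single autosomes.

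By the rule for named genes, the 5 largest fitted rises among genes of at least 100 CPM were Tnp1, Smcp, Pgk2, 4930571K23Rik and Nt5c1b. All were listed at 0 in the 4 E18.5 libraries, so their folds are lower bounds for the listed counts. They do not bound the change in RNA, since a 0 at E18.5 is not read as low RNA by itself. These 5 genes are therefore not ranked against genes with counts at E18.5, such as Prm2 (9360-fold). Nt5c1b, a cytosolic nucleotidase on chromosome 12, was 896, 877, 861, 873 and 875 CPM at 12 weeks, at least 1511-fold above the floor, and 4930571K23Rik on chromosome 7 was 1044, 1139, 1063, 1273 and 1166 CPM. Inhba, Dlk1, H19 and Igfbp5 were among the 5 largest falls. Igfbp5, a binding protein of insulin-like growth factors, was 819.9, 664, 1017 and 853 CPM at E18.5 and 0.402, 1.64, 1.04, 3.26 and 1.84 CPM at 12 weeks (edgeR adjusted p = 1.1e-10). In these 4 genes every adult library was below 4 CPM.

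Genes of the ribosome were mostly lower. Of 78 ribosomal protein genes 46 were lower and 9 higher (median -0.74), against 35.7% of all genes that were lower and 41.7% that were higher. The median is near the step of the composition factors (-0.76 on the log2 scale), and its size depended on the scaling and the adult group. It was -1.496 without the composition factor and -0.57 with TMM from genes of at least 10 counts. With 39-week testes as the adult group it was -0.42. The sign was the same in each of these. The 9 rises include those of Rps27, Rpl30 and Rpl34, near 0 at E18.5. They also include Rpl26, listed at 0 in all 4 E18.5 libraries and at 40.2 to 133 CPM at 12 weeks. These 4 are within the count and the median but are not read. The largest fall was that of the X-linked Rps4x, from 536 ± 27.4 to 22.8 ± 1.54 CPM, while the testis relatives Rpl10l and Rpl39l rose from 8.15 ± 3.19 to 223 ± 23.5 CPM and 5.67 ± 1.97 to 188 ± 19.8 CPM. Of 83 nuclear-encoded subunits of the respiratory chain 46 were higher and 9 lower. Their median of 0.79 was 0.03 without the composition factor, so that this direction rests on the scaling.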

How the data were processed

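RNA-Seq counts of 9 natural F1 testis libraries (4 at E18.5, 5 at 12 weeks) were compared. The authors deposited raw counts per gene symbol; per the labels and the submitters' processing notes, reads were trimmed with Trimmomatic 0.32 and processed with STAR 2.3.0e and featureCounts 1.5.0 on mm10, and DESeq2 is also named. Even values made up 63.6% to 75.7% of counts from 1 to 20, as when both mates of a pair are counted. The tables held 25239 and 35976 symbols, of which 24107 were shared and used; the columns of no sample used numbered 0.

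Genes passing filterByExpr were tested with edgeR 4.0.16 (TMM, robust quasi-likelihood, R 4.3.3) and Benjamini-Hochberg adjustment; calls required an adjusted p below 0.05 and more than 1.5-fold change. Depth is given in the report. On simulated data 92 of 100 2-fold and 100 of 100 4-fold changes were recovered, with 12 false calls among 17146 genes. Both simulated ages shared the same profile apart from these genes, which rose and fell in equal numbers. The simulation therefore does not give the rate of false calls under the shift in composition between the real ages. Groups followed the labels. The members and gene lists were chosen with earlier results of these data known. Named genes were fixed display genes and pairs. They also include the 5 largest non-overlapping fitted changes in each direction with a mean of at least 100 CPM where higher. Other genes named are list members or relatives picked as examples with their values in view. A fold against libraries at 0 used a floor of 3 counts per library. Alternatives covered scaling, filters, DESeq2 1.42.0, other adult groups and left-out libraries. A further fit held all 20 F1 testis libraries of both ages, IVF included, and compared the natural groups. The alternative without genes that the tables may count differently was chosen after seeing the data. Summaries used Python 3.11.15, pandas 2.3.3, numpy 2.4.6 and scipy 1.17.1. Promoter coordinates are those of RefSeq GRCm38.p6. Results for some genes are not reported here.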

Additional observations from a re-analysis of the deposited data

Results flagged for a closer look

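In 8 of 155 groups of libraries examined, 1 library stood apart from the rest of its group by Dixon's criterion at 95%, which chance alone marks in about 1 of 20 groups. At E18.5, Igf2 was 316 CPM in replicate 2 against 956 to 972 CPM in the others, Meg3 was 88.6 CPM in replicate 1 against 883 to 921 CPM, and Kit was 29.9 CPM in replicate 1 against 33.9 to 34.5 CPM. At 12 weeks, Lin28a was 9.71 CPM in replicate 5 against 4.72 to 5.90 CPM, Col1a1 was 22.8 CPM in replicate 1 against 31.2 to 34.1 CPM, and Csf1r was 12.9 CPM in replicate 1 against 16.2 to 17.3 CPM. Cyp51 was 193 CPM in 12-week replicate 4 against 108 to 121 CPM, and Pgk2 was 1346 CPM in 12-week replicate 1 against 1209.9 to 1239 CPM.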

How the results depend on the processing

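Age and count table cannot be told apart, and the E18.5 libraries were the shallower ones. Without the composition factor 4512 genes were lower over 4-fold. With at least 10 counts in every library, which leaves fewer genes to test, 4127 were higher and 4334 lower, 1661 higher over 4-fold and 1579 lower over 4-fold. With 1 library left out in turn, 6691 to 7184 genes were higher, 5822 to 6117 lower, 4151 to 4622 higher over 4-fold and 2668 to 2909 lower over 4-fold. The replicate numbers do not pair the samples (correlations of same-numbered deviations -0.02 to 0.02), and with the number as a replicate block 6993 genes were higher and 5846 lower, 4500 and 2861 of them over 4-fold.

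List medians changed sign in these cases, and the cause was not tested. With total counts alone they were -0.20 for adult Leydig cells, -0.22 for macrophages and -0.31 for Y-linked genes. With at least 10 counts in every library they were -0.47 for differentiating spermatogonia, -1.88 for Y-linked genes and -0.48 for erythroid cells, whose median was -1.07 with no filter and -0.013 in libraries thinned to the smallest. With 1 library left out, the median of mature Sertoli cells ranged from -0.93 to 0.29. Other medians given in the report moved over 1.5 times. With total counts alone they were -1.75 for prospermatogonia, 0.035 for differentiating spermatogonia, -1.59 for mature Sertoli cells, -1.54 for DNA methylation genes, -1.496 for ribosomal proteins and 0.028 for the respiratory chain. With at least 10 counts in every library, which drops genes near 0 at E18.5, they were 1.16 over 5 later spermatocyte genes, 4.37 over 2 chromatin packaging genes and 0.23 for adult Leydig cells, for which the alternatives other than total counts ranged from 0.15 to 1.74. With F2 testes they were 0.41 for differentiating spermatogonia, 0.28 for macrophages and 0.48 for the respiratory chain, and with 39-week testes -0.42 for ribosomal proteins. The median of differentiating spermatogonia was 1.20 without E18.5 replicate 1 and 0.51 without E18.5 replicate 3, that of macrophages 0.23 when thinned, and that of mature Sertoli cells -0.22 with the replicate block and -1.40 without genes that the tables may count differently.

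The genes that changed sign were not called with all 9 libraries and the main scaling, and calls that some of them gained are given in the report. Zbtb16 was 0.095 with DESeq2 size factors, 0.15 with TMM from genes of at least 10 counts, 0.10 with the DESeq2 Wald test, 0.013 with no filter, 0.15 with at least 10 counts, 0.088 with the replicate block, 0.0099 with all 20 libraries, 0.037 with F2 testes, 0.035 without Gm and Rik symbols, and -0.23 to 0.39 with 1 library left out. Kit was 0.024 with TMM from genes of at least 10 counts and 0.024 with that filter, and 0.41 with F2 testes. Cyp17a1 was -0.73 with total counts, -0.10 thinned, -0.39 with F2 testes, -0.41 with 39-week testes, and -0.23 to 0.47 with 1 library left out. Ptgds was -0.70 with total counts, -0.041 thinned, and -0.060 to 0.17 with 1 library left out. Csf1r was 0.012 with DESeq2 size factors, 0.069 with TMM from genes of at least 10 counts, 0.014 with the DESeq2 Wald test, 0.069 with at least 10 counts, and -0.15 to 0.0089 with 1 library left out. Cyp51 was -0.48 with total counts and -0.12 with 39-week testes.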

Other observations

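Outside the gene lists, single E18.5 libraries also stood apart at abundant genes. Leng8 and Pnisr, genes linked to RNA processing, were 71.3 and 39.0 CPM in replicate 1, Malat1, a nuclear noncoding RNA, was 1827 CPM in replicate 2, and Cwc22, a splicing factor, was 356 CPM in replicate 3, each more than 3-fold from every other library of that age. Genes of the ovary were few: 3 of 4 tested were lower at 12 weeks, among them Wnt4 (30.8 ± 4.66 to 0.183 ± 0.228 CPM), a ligand that many fetal tissues make, and Gdf9, a growth factor of oocytes, was higher (0.595 ± 0.551 to 12.0 ± 4.64 CPM).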
